A study of Mus musculus with 19 samples.

Results

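Gene expression in differentiated 3T3-L1 cells given palmitoleic acid (PMA, 4 arrays) was compared with that in vehicle control cells (4 arrays), 8 of the 19 microarrays of the study. The arrays were taken by their titles, which spell the acid PMO, while the treatment protocol spells it PMA. 3T3-L1 is a mouse fibroblast line whose preadipocytes become lipid-storing, adipocyte-like cells in culture, and all samples come from this 1 line. The cells were differentiated with Dex, IMBX and insulin, as the labels write them, then kept in insulin, and serum was withdrawn on day 7. From day 8 they received, for 48 h, 250 µM of palmitoleic acid (16 carbons, 1 double bond), or at the same dose and time palmitic acid (PA, 16 carbons, no double bond, 4 arrays), stearic acid (SA, 18 carbons, no double bond, 4 arrays) or oleic acid (OA, 18 carbons, 1 double bond, 3 arrays). Every acid came from a 25 mM ethanol stock diluted 1:100 into medium with 2% albumin, and control cells received the same albumin and ethanol without an acid. The main comparison asks which genes palmitoleic acid changed in these cells. It covers 18820 genes, each represented by the brightest of its probe sets that carry exactly 1 symbol.

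Palmitoleic acid is the fatty acid that stearoyl-CoA desaturases make by adding a double bond to palmitic acid, and fat cells both make and release it. Work in mice gave it the name lipokine, for a lipid that fat tissue sends to liver and muscle. Long-chain fatty acids can be stored in triglyceride, burned in mitochondria, built into membranes or sensed by nuclear receptors of the PPAR family, whose targets include lipid droplet proteins and oxidation enzymes.

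Values are log2 expression after robust multi-array averaging (RMA), as deposited. Differences are PMA minus control ± the standard error (SE) of a linear model fitted to all 19 arrays with limma, and a gene is said to have risen or fallen where its Benjamini-Hochberg adjusted p, over all 18820 genes, was under 0.05. Pairs of arrays correlated at 0.992 to 0.999, and no columns of the table were identical. Per the labels, the arrays within each group are biological replicates. Neither labels nor headers name a batch or a scan date, and none could be tested. On the first principal component (31.2% of the variance) PA replicates 2 and 4 lay lowest (-27.4 and -13.8, with every other array between -8.27 and 10.3). The comparison of PMA with PA was not repeated without them. PMA replicates 1 and 4 stood apart from the rest on the second principal component, with 13.7% of the variance (-17.1 and -11.9, with every other array between -4.44 and 7.57). The median gene of these 2 arrays lay 0.13 and 0.09 above the control mean, against -0.00 and 0.03 in PMA replicates 2 and 3. The counts of changed genes and the calls in the gene lists are therefore also given with those 2 arrays left out. In bulk RNA, fewer cells of a type and less RNA per cell cannot be told apart.

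PMA changed 50 genes (0.266% of the genes tested): 36 rose (0.191%) and 14 fell (0.0744%). The rises were small, from 0.20 to 0.64 with a median of 0.29, and the falls ran from -0.27 to -0.57 with a median of -0.38. Only BC023105 among the 50 passed a 1.5-fold change. With PMA replicates 1 and 4 left out, 3 genes passed, BC023105, Egr1 and Znfx1. In each of the 50 genes the 4 PMA arrays did not overlap the 4 control arrays. Over all genes, all 4 PMA arrays were above all control arrays in 9.29% and below them in 1.3%. The median difference of all genes was 0.06, and 78.5% of genes were higher with PMA, so the distribution as a whole leaned upward. At an unadjusted p under 0.05 there were 2730 genes higher (14.5%) and 281 lower (1.49%). That split moved to 1193 higher and 918 lower after cyclic loess between arrays, 907 and 632 after centring each array on its median, and 594 and 492 without PMA replicates 1 and 4. The median 95% interval, not adjusted for the number of genes, reached 0.14 to either side of a gene's difference. Differences well under that were not resolved with 4 arrays per group, and the smallest difference that passed the adjusted threshold was 0.20. Another 211 genes had an adjusted p between 0.05 and 0.10, and 30 of the 50 called genes lay between 0.04 and 0.05, close to the threshold.

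**Figure D1:**
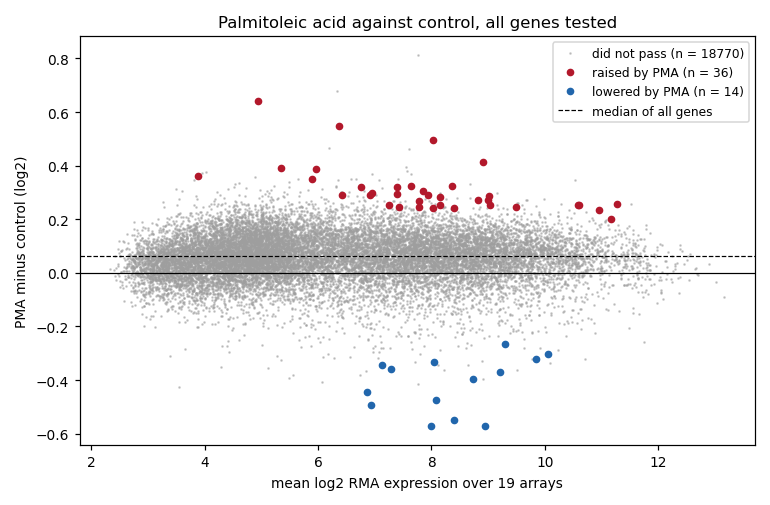
Difference PMA minus control (log2, vertical axis) of each of 18820 genes against its mean log2 RMA expression over 19 arrays (horizontal axis). The 36 raised genes (red) lie between 0.20 and 0.64 and the 14 lowered genes (blue) between -0.27 and -0.57, and the dashed median of all genes sits at 0.06.

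Among the changed genes, 8 passed whichever 1 of the 19 arrays was left out, namely BC023105, Fmod and Cpe among the rises and Egr1, Znfx1, Rpa3, Ccl7 and Med21 among the falls. The proximal promoters of Fmod, Med21 and Rpa3 are printed here. Each had exactly 1 entry in the promoter table, and promoters on 1 chromosome were not considered for printing. These are the regions next to the start site of genes whose change rested least on any 1 array. They are RefSeq sequences of GRCm38.p6, from 250 bases before to 50 bases after the start, read 5′ to 3′ along the gene, and capitals mark matches to the motifs searched. Fmod lies at chr1:134037004-134037303 on the plus strand, Med21 at chr6:146642329-146642628 on the plus strand and Rpa3 at chr6:8259092-8259391 on the minus strand.
Fmod: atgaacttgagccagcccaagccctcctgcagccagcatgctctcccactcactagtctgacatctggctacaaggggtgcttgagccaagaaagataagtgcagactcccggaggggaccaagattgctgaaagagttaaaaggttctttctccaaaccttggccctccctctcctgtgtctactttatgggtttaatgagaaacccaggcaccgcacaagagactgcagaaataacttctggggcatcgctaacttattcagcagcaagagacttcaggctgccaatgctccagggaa
Med21: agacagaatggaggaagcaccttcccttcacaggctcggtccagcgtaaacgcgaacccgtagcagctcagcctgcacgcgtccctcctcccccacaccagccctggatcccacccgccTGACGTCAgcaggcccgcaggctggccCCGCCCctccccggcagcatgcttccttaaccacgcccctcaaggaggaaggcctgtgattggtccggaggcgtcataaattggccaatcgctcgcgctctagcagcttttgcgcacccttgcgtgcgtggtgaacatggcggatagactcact
Rpa3: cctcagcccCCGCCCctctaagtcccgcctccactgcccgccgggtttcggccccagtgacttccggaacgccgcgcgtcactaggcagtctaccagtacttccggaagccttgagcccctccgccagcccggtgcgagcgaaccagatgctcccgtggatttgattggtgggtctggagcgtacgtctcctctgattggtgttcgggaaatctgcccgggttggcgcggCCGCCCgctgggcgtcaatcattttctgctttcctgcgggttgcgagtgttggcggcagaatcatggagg
The searches ran on both strands. For the TATA box the letters were TATAAA, and for the GC box they were GGGCGG. The AP-1 site was searched as TGANTCA. The cyclic AMP response element (CRE) was searched as TGACGTCA and the NF-kB core as GGGANTTTC. For nuclear receptors the half-site AGGTCA was used. The interferon element core was GAAANNGAA, and the hypoxia element was ACGTG; no match marked here overlaps another. None of these motifs occurred in the Fmod window. The Med21 window held the CRE letters starting at -131 and a GC box at -104, counted from the start site, and the Rpa3 window held GC boxes at -241 and -20. CRE letters stood in 438 of 18141 promoters of measured genes (2.41%). A promoter was found for 24 of the 36 raised genes (37 promoters) and 10 of the 14 lowered genes (12 promoters). A GC box was present in 18 of 37 promoters of raised genes and in 10 of 12 promoters of lowered genes, against 49.6% of all 18141. The AP-1 letters were in 5 of 37 and 1 of 12, against 6.74% of all, and the nuclear receptor half-site in 5 of 37 and 3 of 12, against 14.3%. These are descriptions of letters and were not tested.

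The largest rises included genes for secreted and extracellular proteins. Fmod encodes fibromodulin, a small leucine-rich proteoglycan that binds collagen fibrils, and stood at 6.49, 6.59, 6.54 and 6.80 in PMA cells, against 6.12, 6.12, 6.04 and 5.95 in control cells. All PMA arrays were higher, replicate 4 most of all. The difference was 0.55 ± 0.080 (adjusted p = 0.0033). Sfrp2, a secreted modulator of Wnt signalling, had 8.47, 8.27, 8.33 and 8.17 in PMA cells, against 7.92, 7.85, 7.87 and 7.63 in control cells. Control replicate 4 was the lowest of its group, and the groups did not overlap. Sfrp2 rose by 0.50 ± 0.099 (adjusted p = 0.0444), a call that ended when any of 12 of the 19 arrays was left out. Cpe encodes carboxypeptidase E, which trims basic residues from the ends of prohormone fragments, and was measured at 9.25, 9.09, 9.05 and 9.14 in PMA cells, against 8.73, 8.71, 8.83 and 8.61 in control cells. The narrow spread left a wide gap between the groups, with a rise of 0.41 ± 0.062 (adjusted p = 0.00461). Sema3f, a class 3 semaphorin that repels growing axons and vessels, had values of 7.88, 7.67, 7.80 and 7.81 in PMA cells, against 7.42, 7.50, 7.55 and 7.39 in control cells. PMA replicate 2 was the lowest of its group but still above each control, and the rise was 0.33 ± 0.056 (adjusted p = 0.0139).

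**Figure D2:**
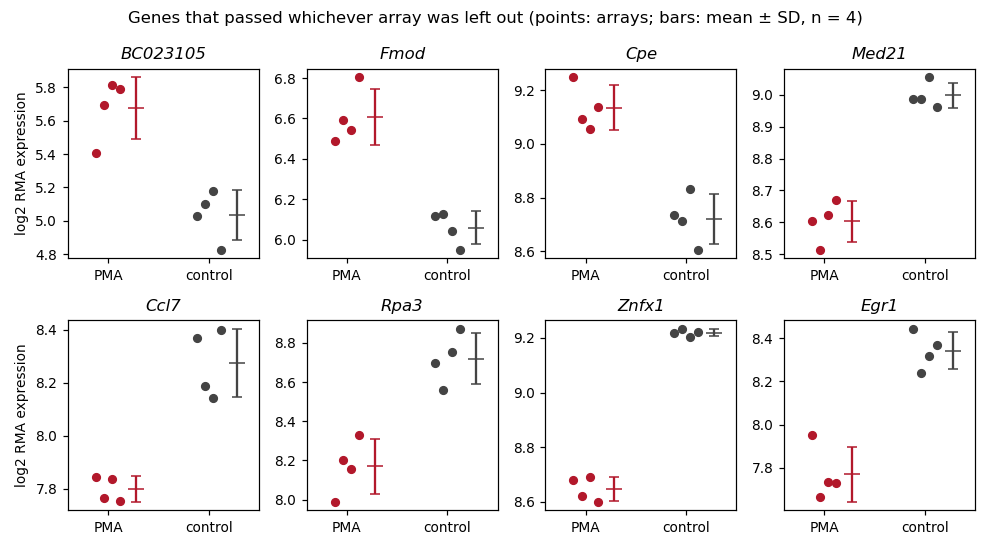
Log2 RMA expression (vertical axes, each with its own range) of the 8 genes that passed whichever array was left out, by array (points), with mean ± SD (bars, n = 4), PMA left and control right. In each panel the 4 PMA arrays lie on 1 side of the 4 control arrays, above them for BC023105, Fmod and Cpe and below them for the other genes.

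BC023105, a transcript to which no role is given here, rose most, with 5.41, 5.69, 5.81 and 5.79 in PMA cells, against 5.03, 5.10, 5.18 and 4.83 in control cells. PMA replicate 1 was the lowest of the PMA arrays and still above the highest control. The difference was 0.64 ± 0.086 (adjusted p = 0.00124), and it was larger, 0.72, with PMA replicates 1 and 4 left out. Phex, a membrane protein of the endopeptidase family known from inherited phosphate wasting, had 5.70, 5.37, 5.48 and 5.72 in PMA cells, against 5.30, 5.15, 5.23 and 5.03 in control cells. Replicates 1 and 4 were the highest of the PMA arrays. Phex rose by 0.39 ± 0.080 (adjusted p = 0.0444), while without these 2 arrays the difference was 0.25 and did not pass. Plagl1, an imprinted zinc finger transcription factor, stood at 6.21, 6.26, 6.18 and 6.08 in PMA cells, against 5.66, 5.98, 5.87 and 5.67 in control cells. Control arrays 1 and 4 were clearly below the other two, and the rise was 0.39 ± 0.079 (adjusted p = 0.0444). Taar3 belongs to the trace amine receptors of the olfactory system and was measured at low signal, 4.15, 3.92, 3.91 and 4.14 in PMA cells, against 3.58, 3.77, 3.79 and 3.52 in control cells. PMA replicates 1 and 4 were again highest, and the rise of 0.36 ± 0.071 (adjusted p = 0.0397) became 0.25 and did not pass without them. Aldh1a3, which makes retinoic acid from retinaldehyde, had 6.15, 6.09, 5.87 and 6.11 in PMA cells, against 5.66, 5.81, 5.73 and 5.61 in control cells. PMA replicate 3 came nearest to the controls, and the rise was 0.35 ± 0.071 (adjusted p = 0.0444). Clk1, a kinase that phosphorylates splicing factors of the SR family, stood at 8.32, 8.54, 8.41 and 8.51 in PMA cells, against 8.13, 8.13, 8.08 and 8.16 in control cells. Its control arrays were tightly grouped, and it rose by 0.32 ± 0.068 (adjusted p = 0.0463), a call lost when any of 17 of the 19 arrays was left out.

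The other 26 rises were between 0.20 and 0.32. Further genes of the cell surface and matrix among them were Sema3c, a second class 3 semaphorin (0.27 ± 0.056), the mesenchymal cadherin Cdh11 (0.23 ± 0.047), T-cadherin Cdh13, which binds adiponectin (0.24 ± 0.051), the collagen chains Col1a1 (0.26 ± 0.054) and Col6a1 (0.20 ± 0.042), the secreted olfactomedin-like protein Olfml2b (0.25 ± 0.052), the secreted protease Prss23 (0.30 ± 0.060) and the scavenger receptor family member Scara3 (0.25 ± 0.051). Genes of transport and lipid signalling were Abcc4, an exporter of cyclic nucleotides and prostaglandins (0.31 ± 0.062), Slc7a5, which carries large neutral amino acids (0.25 ± 0.051), and Plpp3, a phosphatase of lysophosphatidic acid (0.25 ± 0.049). Tnfrsf21, a receptor of the tumour necrosis factor family known as death receptor 6, rose by 0.32 ± 0.064. Coro1c, an actin-binding coronin, rose by 0.25 ± 0.054. In the nucleus, Sox4, a transcription factor (0.24 ± 0.051), Epc1, of the NuA4 acetyltransferase complex (0.25 ± 0.054), and Gar1, a core protein of H/ACA small nucleolar particles (0.29 ± 0.062), rose. Zdhhc7, a protein palmitoyltransferase, rose by 0.24 ± 0.049. Also raised were Cand2, a muscle-enriched relative of the cullin regulator Cand1 (0.32 ± 0.055), Dnajb14, a J-domain co-chaperone of the endoplasmic reticulum (0.29 ± 0.060), and Sh3bp5, a mitochondrial docking protein for the kinase JNK (0.29 ± 0.063). Ptchd1 (0.29 ± 0.056), Arl14ep (0.29 ± 0.049), Armcx2 (0.28 ± 0.059), Rhoj (0.27 ± 0.056), Tmem164 (0.27 ± 0.057) and Gramd4 (0.25 ± 0.045) rose as well. Their adjusted p by limma ran from 0.0139 for Cand2 to 0.0499 for Gar1.

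The falls began with 2 regulatory genes. Egr1, an immediate early transcription factor that growth factors induce within minutes, had 7.95, 7.67, 7.73 and 7.73 in PMA cells, against 8.44, 8.24, 8.32 and 8.37 in control cells. PMA replicate 1 was nearest to the controls, and the groups stayed apart. Egr1 fell by 0.57 (SE 0.067, adjusted p = 0.000502) and by more, 0.64, without PMA replicates 1 and 4. Znfx1, an RNA helicase with zinc fingers that senses viral RNA, was measured at 8.68, 8.62, 8.69 and 8.60 in PMA cells, against 9.22, 9.23, 9.20 and 9.22 in control cells. The control arrays were very close together, and the PMA arrays were all lower. The difference was -0.57 ± 0.072 (adjusted p = 0.000811). A second, dimmer Znfx1 probe set gave 0.09 ± 0.042, so the 2 probe sets disagree and the fall holds for 1 of them. Ccl7, a chemokine that draws in monocytes, stood at 7.85, 7.76, 7.84 and 7.75 in PMA cells, against 8.37, 8.19, 8.14 and 8.40 in control cells. Control replicates 1 and 4 were highest, all PMA arrays lay below the lowest control, and the difference was -0.47 ± 0.064 (adjusted p = 0.00124).

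Rpa3, Sap30, Med21 and Lsm7 encode subunits of larger complexes. Rpa3 is the smallest subunit of replication protein A, which coats single-stranded DNA, and had 7.99, 8.20, 8.16 and 8.33 in PMA cells, against 8.70, 8.56, 8.76 and 8.87 in control cells. PMA replicate 1 was the lowest array, and the difference was -0.55 ± 0.085 (adjusted p = 0.00508). Its second probe set gave -0.16 ± 0.057. Sap30, of the Sin3 histone deacetylase complex, had 6.82, 6.56, 6.83 and 6.89 in PMA cells, against 7.15, 7.18, 7.22 and 7.52 in control cells. PMA replicate 2 was lowest and control replicate 4 highest, and Sap30 differed by -0.49 ± 0.088 (adjusted p = 0.0189). Med21, of the Mediator complex that links transcription factors to RNA polymerase II, stood at 8.60, 8.51, 8.62 and 8.67 in PMA cells, against 8.99, 8.99, 9.06 and 8.96 in control cells. Its 2 groups were both tight, with a difference of -0.40 ± 0.062 (adjusted p = 0.00577). Lsm7 belongs to the ring that binds U6 RNA and decaying mRNA, and was measured at 7.26, 7.26, 7.15 and 7.16 in PMA cells, against 7.55, 7.54, 7.56 and 7.61 in control cells. The groups did not overlap, and the difference was -0.36 ± 0.074 (adjusted p = 0.0463), with -0.38 ± 0.087 at a second probe set.

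The other falls were as follows. Ankrd37, an ankyrin repeat protein known as a target of hypoxia-inducible factor, had 6.78, 6.47, 6.61 and 6.68 in PMA cells, against 6.97, 7.18, 7.03 and 7.13 in control cells. PMA replicate 1 was nearest to the controls, and the difference was -0.45 ± 0.091 (adjusted p = 0.0444). Gm10548, a predicted gene, had 9.23, 9.30, 9.12 and 8.94 in PMA cells, against 9.51, 9.58, 9.41 and 9.55 in control cells. PMA replicate 4 was lowest, and the difference was -0.37 ± 0.069 (adjusted p = 0.0351). Wfdc21, a secreted protein with a WAP domain, stood at 6.90, 6.80, 6.90 and 6.83 in PMA cells, against 7.28, 7.12, 7.18 and 7.23 in control cells. Both groups were tight, with a difference of -0.34 ± 0.056 (adjusted p = 0.00906). Genes of protein import and secretion made up the rest of the 14. They were Immp1l, a peptidase of the mitochondrial inner membrane (-0.33 ± 0.064), Tomm20, the import receptor of the outer membrane (-0.32 ± 0.068), Sec61g, of the translocon of the endoplasmic reticulum (-0.30 ± 0.063), and Cnih4, a cornichon protein of export from it (-0.27 ± 0.050), with adjusted p between 0.0373 and 0.0463. Sec61g had 3 further probe sets, at -0.45, -0.38 and -0.50, and Tomm20 a second at -0.31, all lower with PMA. The second probe sets of Immp1l (-0.08 ± 0.12) and of the raised Prss23 (-0.02 ± 0.11) stood near 0. Where a gene has near-identical copies, the array cannot tell them apart, and these values are uncertain in that respect.

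**Figure D3:**
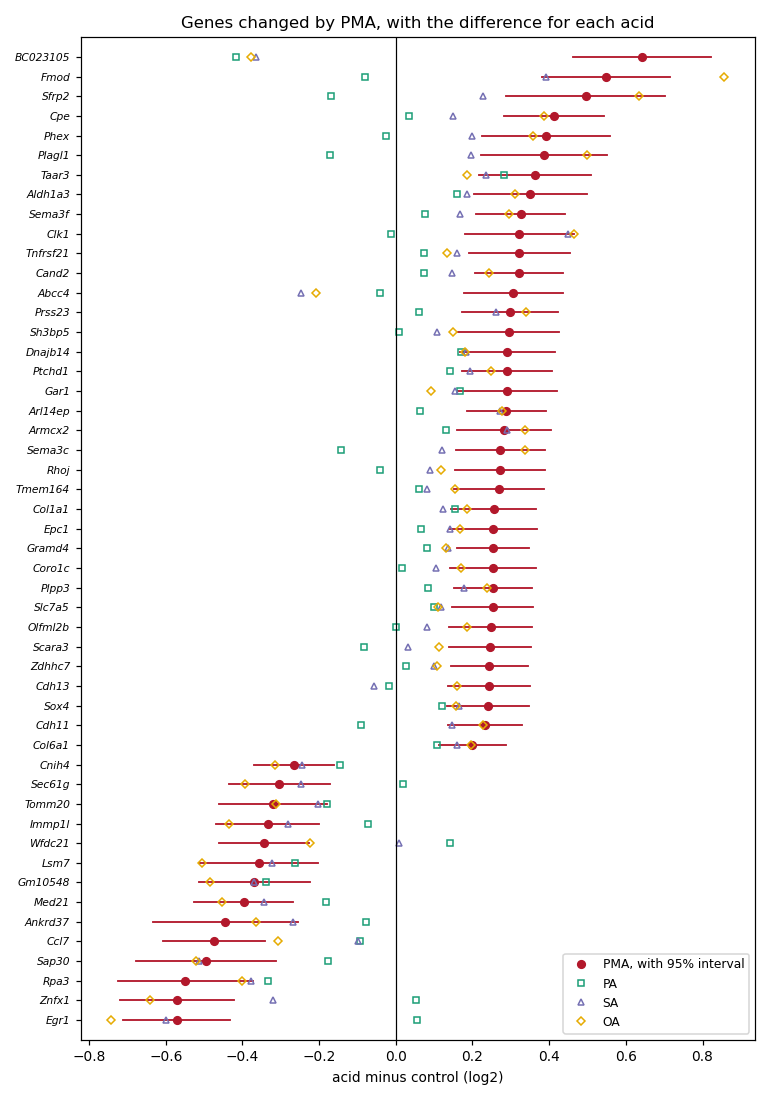
Difference from control (log2, horizontal axis) of the 50 genes changed by PMA (vertical axis, largest rise at the top), with the 95% interval for PMA (red) and the differences for PA, SA and OA (open symbols), which share the 4 control arrays. The 36 rises and 14 falls of PMA clear 0, BC023105 lies below 0 with the other acids, and Fmod and Egr1 lie farther from 0 with OA than with PMA.

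In the gene lists that follow, each call was also looked up after both other scalings and without PMA replicates 1 and 4. Without those 2 arrays Egr1 and Znfx1 were the only list members past the threshold. No gene of the lipid lists passed, in any of these settings. Of 29 measured PPAR targets none rose or fell, the median difference being 0.07, against 0.06 over all genes. None of the 26 genes of lipogenesis (median 0.07), 19 of cholesterol synthesis and uptake (0.05), 25 of fatty acid oxidation (0.05) or 27 of triglyceride and lipid droplet metabolism (0.06) passed either. At an unadjusted p under 0.05 by limma, 8 PPAR targets were higher and 0 lower, as were 3 and 1 genes of lipogenesis, 1 and 0 of cholesterol, 4 and 0 of oxidation and 5 and 0 of triglyceride metabolism. Over all genes the shares were 14.5% higher and 1.49% lower. After cyclic loess the 5 lists had 5, 2, 1, 2 and 4 genes higher and 0, 1, 0, 2 and 1 lower, in the same order. Nearest to the threshold was Slc27a1, a fatty acid transport protein, at 9.34 ± 0.037 in PMA cells and 9.09 ± 0.079 in control cells (SD, n = 4 each), with a difference of 0.25 and an adjusted p by limma of 0.0602. Plin1, the perilipin that coats fat cell droplets, gave 0.16 ± 0.043 (adjusted p = 0.098), Plin5, the perilipin of oxidative tissue, 0.28 ± 0.076 (adjusted p = 0.105), and Cpt1a, which admits fatty acids to mitochondria, 0.17 ± 0.051 (adjusted p = 0.127). All 4 PMA arrays were above all controls in 7 of 29 PPAR targets, 4 of 26 genes of lipogenesis, 3 of 19 of cholesterol, 5 of 25 of oxidation and 4 of 27 of triglyceride metabolism, against 9.29% of all genes. Other genes lay near 0. The 95% interval was -0.06 to 0.13 for Scd1, the desaturase that makes palmitoleic acid, -0.12 to 0.07 for Plin2, the general droplet coat, -0.10 to 0.13 for Cd36, a fatty acid transporter, -0.26 to 0.08 for Pdk4, which blocks pyruvate dehydrogenase, and -0.13 to 0.09 for Angptl4, an inhibitor of lipoprotein lipase. Adipokines (19 genes, median 0.04) and genes of insulin signalling and glucose use (28 genes, 0.06) had no member past the threshold by limma, with 3 higher and 2 lower, and 6 higher and 0 lower, at an unadjusted p under 0.05. After cyclic loess Adm, encoding adrenomedullin, of the adipokine list passed as lower (adjusted p = 0.0498). Among them Adipoq, encoding adiponectin, differed by -0.03 ± 0.050, Lep, encoding leptin, by -0.17 ± 0.063, and Slc2a4, the insulin-responsive glucose transporter, by 0.13 ± 0.052.

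Matrix genes gave a few calls. Of 23 measured collagen chains 2 rose, Col1a1 and Col6a1, and none fell, with a median of 0.11, where 0.191% of all genes rose. Col1a1, a chain of type I collagen, had 11.42, 11.30, 11.39 and 11.42 in PMA cells, against 11.12, 11.15, 11.16 and 11.09 in control cells. Col6a1, of the beaded type VI collagen around fat cells, had 11.26, 11.20, 11.21 and 11.25 in PMA cells, against 11.01, 11.05, 11.02 and 11.04 in control cells. In both genes the groups were narrow and did not overlap. Col1a2, the partner chain, gave 0.20 ± 0.050 (adjusted p = 0.0791) and did not pass. All PMA arrays were above all controls in 10 of the 23 chains, against 9.29% of all genes. Only Fmod rose among 14 small leucine-rich proteoglycans (median 0.03), and it passed after both other scalings. Of the others, Ogn, osteoglycin, gave 0.26 ± 0.080 and Dcn, decorin, 0.18 ± 0.055. None of 43 matricellular and remodelling genes passed by limma (median 0.07, with 12 higher and 4 lower at an unadjusted p under 0.05, 8 and 4 after cyclic loess). Over all genes these shares were 14.5% higher and 1.49% lower, and 6.34% and 4.88% after loess. Timp2, an inhibitor of matrix metalloproteinases, stood at 0.26 ± 0.057 (adjusted p = 0.0571) and Ccn1, a matricellular protein, at -0.34 ± 0.087 (adjusted p = 0.0798), and Ccn1 passed after cyclic loess. Of 22 preadipocyte and fibroblast markers 1 rose (median 0.12), as did 1 of 41 Wnt pathway genes (median 0.12), in both lists Sfrp2, and none fell. At an unadjusted p under 0.05 by limma, 8 of these markers and 16 Wnt genes were higher and 0 lower. After cyclic loess 5 markers and 7 Wnt genes were higher, and 1 of each list was lower. Sfrp2 passed after median centring and did not after cyclic loess (adjusted p = 0.0795) or without PMA replicates 1 and 4 (adjusted p = 0.398), and the list medians were 0.06 and 0.07 after loess. Dlk1, a preadipocyte protein that holds back differentiation, gave 0.26 ± 0.059 (adjusted p = 0.0611). The 11 fibroblast markers used to check the cells had a mean level of 10.004 to 10.096 per PMA array, against 9.91 to 9.97 per control array, with a median difference of 0.14, 1 of 11 past the threshold (Col1a1) and all PMA arrays above all controls in 6. Their part in the matrix results was not tested. After cyclic loess between arrays Col6a1 passed and Col1a1 did not, and after centring each array on its median neither passed, with list medians of 0.05 and 0.06.

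Few inflammatory and stress genes passed. Of 30 chemokines 1 fell, Ccl7, and none rose (median 0.02), where 0.0744% of all genes fell. At an unadjusted p under 0.05 by limma, 1 chemokine was higher and 5 lower, and 1 and 5 after cyclic loess. Over all genes these shares were 14.5% and 1.49%, and 6.34% and 4.88% after loess. All PMA arrays were below all controls in 4 of the 30 and above them in 1, against 1.3% and 9.29% of all genes. Ccl2, the related monocyte chemokine, had 6.61, 6.69, 6.81 and 6.62 in PMA cells, against 7.09, 6.83, 7.11 and 6.89 in control cells. Its PMA arrays were all below the controls, and the difference of -0.29 ± 0.087 did not pass (adjusted p = 0.127). Ccl5, which draws in T cells, differed by -0.41 ± 0.13 (adjusted p = 0.142) and Cxcl12, a retention signal for blood stem cells, by 0.21 ± 0.047 (adjusted p = 0.0606). None of 30 cytokine and acute phase genes passed by limma (median 0.01). At an unadjusted p under 0.05, 2 were higher and 5 lower, against 14.5% and 1.49% of all genes. After cyclic loess 1 was higher and 8 lower, against 6.34% and 4.88%. Il6 gave -0.27 ± 0.094, Lcn2, an iron-binding lipocalin, -0.21 ± 0.090 and Hp, haptoglobin, -0.22 ± 0.072. The 29 Toll-like receptor and NF-kB genes had no call (median 0.07, 5 higher and 0 lower unadjusted). Egr1 was the only call among 41 immediate early and ERK feedback genes (median 0.02). At an unadjusted p under 0.05 by limma, 5 of the 41 were higher and 7 lower, where 14.5% and 1.49% of all genes were. After cyclic loess 5 were higher and 13 lower, where 6.34% and 4.88% of all genes were. Fos gave -0.27 ± 0.088 and Jun 0.17 ± 0.047, on opposite sides of 0 and neither past the threshold. Znfx1 was the only call among 39 interferon-stimulated genes (median 0.04), with Ifi27l2a at -0.40 ± 0.10 (adjusted p = 0.0798). Among 28 genes of the integrated stress response (median 0.06) only Slc7a5, through which that response brings in amino acids, rose, and none fell. Over all genes 0.191% rose. The Slc7a5 call did not hold after cyclic loess (adjusted p = 0.0617), after median centring (adjusted p = 0.138) or without PMA replicates 1 and 4 (adjusted p = 0.503). At an unadjusted p under 0.05 by limma, 10 of the 28 were higher and 1 lower, against 14.5% and 1.49% of all genes. After cyclic loess 7 were higher and 3 lower, against 6.34% and 4.88%. Ddit4, an inhibitor of mTORC1, gave 0.27 ± 0.072 (adjusted p = 0.0941), and Atf3 0.00 ± 0.067. No gene of the unfolded protein response passed by limma (28 genes, median 0.04, 3 higher and 2 lower unadjusted), with the chaperone Hspa5 at 0.03 ± 0.045. After cyclic loess Hsph1, another chaperone, passed as lower (-0.25, adjusted p = 0.026). Abcc4 was the call among 26 NRF2 targets (median 0.07) and Ankrd37 among 26 hypoxia genes (median -0.01), and no other member of either list passed. Abcc4 did not pass after cyclic loess (adjusted p = 0.0559) or median centring (adjusted p = 0.139). Ankrd37 passed after both, and Adm of the hypoxia list passed as lower after loess.

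None of 43 cytosolic ribosomal protein genes passed (median -0.03) and none of 55 respiratory chain and ATP synthase genes (median -0.00) by limma, both below the median of all genes, 0.06. Rps24 was nearest, at -0.29 ± 0.066 (adjusted p = 0.0631), and fell past the threshold after cyclic loess. In 28 of the 43 ribosomal genes and 29 of the 55 respiratory genes the difference was below 0, and at an unadjusted p under 0.05 5 ribosomal genes were lower and 0 higher, and 6 respiratory genes lower and 2 higher. Over all genes 1.49% were lower and 14.5% higher. After cyclic loess the same counts were 8 lower and 0 higher, and 10 lower and 1 higher, where 4.88% of all genes were lower and 6.34% higher. Rpa3, which fell, was the only call among 46 genes of DNA replication and the cell cycle (median 0.08), where 0.0744% of all genes fell. Of the 46 differences 39 were above 0, as were 78.5% of those of all genes. Cpe, which rose, was the only call among 16 genes of peptide hormone processing (median 0.08), where 0.191% of all genes rose.

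The labelled cell type was checked against marker genes. The 11 adipocyte markers had a mean level of 11.2 in PMA arrays and 11.1 to 11.2 in control arrays. Adipoq averaged 12.19 ± 0.044 in PMA cells and 12.23 ± 0.037 in control cells, and Fabp4, the adipocyte fatty acid binding protein, 12.33 ± 0.060 in PMA cells and 12.40 ± 0.025 in control cells (SD, n = 4 each). Preadipocyte and fibroblast transcripts such as Dlk1 (11.65 ± 0.056 in PMA cells, 11.40 ± 0.063 in control cells) were measured beside them. Macrophage and other leukocyte markers (9 genes) averaged 4.87 to 5.01 in PMA arrays and 4.82 to 4.90 in control arrays, and none passed. Cd68, a lysosomal protein of macrophages, gave 0.32 ± 0.097 (adjusted p = 0.128). No endothelial, muscle or bone and cartilage marker passed (5 genes each, medians 0.09, 0.04 and 0.08).

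PMA was next set against the other acids at the same dose and time, with p-values adjusted over all genes of the 3 pairs together. The 3 pairs share the PMA arrays, as does the comparison with control. PMA differed from PA, which lacks its double bond, in 101 genes (0.537%), 89 higher and 12 lower in PMA cells. It differed from SA, which lacks the double bond and has 2 more carbons, in 52 genes (0.276%), 34 higher and 18 lower. From OA, with the same number of double bonds and 2 more carbons, it differed in 29 genes (0.154%), 23 higher and 6 lower. Of the 50 genes changed against control, 19 differed from PA, 5 from SA and 2 from OA, and 31 differed from none of the 3 acids. Without PMA replicates 1 and 4, a setting chosen for these pairs after the data were seen, the counts were 16 against PA, 9 against SA and 4 against OA. Of the original calls 14, 8 and 4 were among them. As these 50 genes were chosen on the same PMA arrays, the counts are descriptions. The median 95% interval over the 50 genes reached 0.13 to either side for PA and SA and 0.14 for OA, so smaller differences between the acids were not resolved. These intervals are not adjusted for the number of genes, and larger differences also missed the adjusted threshold. Examples are Fmod at -0.31 in PMA minus OA (adjusted p by limma 0.147) and Cpe at 0.26 in PMA minus SA (adjusted p by limma 0.079).

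In all, 3 genes differed between PMA and every other acid. BC023105 averaged 5.68 ± 0.19 in PMA cells, 4.62 ± 0.045 in PA cells, 4.67 ± 0.15 in SA cells, 4.65 ± 0.071 in OA cells and 5.03 ± 0.15 in control cells (SD, n = 4, and 3 for OA). Its mean lay above that of control with PMA and below it with the other acids, whose differences from control (-0.42 for PA, -0.36 for SA and -0.38 for OA) did not pass. The difference was 1.06 from PA, 1.01 from SA and 1.02 from OA, with an adjusted p by limma of at most 6.92e-06. By array Abcc4 had 8.33, 7.97, 8.23 and 8.18 in PMA cells, against 7.87, 7.97, 7.79 and 7.87 in control cells. PMA replicate 2 and control replicate 2 were nearly level, and the groups otherwise stood apart. Abcc4 averaged 8.18 ± 0.15 in PMA cells, 7.83 ± 0.048 with PA, 7.63 ± 0.052 with SA, 7.66 ± 0.032 with OA and 7.87 ± 0.072 in control cells. It was higher with PMA by 0.35 (adjusted p = 0.0124), 0.55 (adjusted p = 0.000131) and 0.51 (adjusted p = 0.000632) than with these 3 acids in turn. Cd74, the invariant chain of class II antigen presentation, averaged 5.92 ± 0.044 in PMA cells, 5.55 ± 0.13 with PA, 5.57 ± 0.063 with SA, 5.60 ± 0.10 with OA and 5.71 ± 0.065 in control cells. It was higher with PMA by 0.37, 0.35 and 0.32 (adjusted p by limma at most 0.0374), whereas its difference from control, 0.21, did not pass. Without PMA replicates 1 and 4, BC023105 still differed from all 3 acids, Abcc4 from SA and OA but not PA (adjusted p = 0.309), and Cd74 from none (adjusted p by limma 0.0963 to 0.23).

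PMA and PA differ by the double bond alone. Among the 50 genes, Egr1 was -0.63 and Znfx1 -0.62 in PMA minus PA cells (adjusted p by limma 7.91e-05 and 0.000161). Fmod was 0.63, Sfrp2 0.66 and Plagl1 0.56 higher with PMA than with PA (adjusted p from 0.000552 to 0.00266 by limma). Outside the 50, by values already seen, Ccl5 averaged 5.53 ± 0.12 with PMA and 6.71 ± 0.36 with PA, a difference of -1.18 (adjusted p = 7.91e-05). Agtr2, the type 2 angiotensin receptor, was higher with PMA by 0.74 (adjusted p = 0.00193), and Ogn by 0.62 (adjusted p = 0.000632). Timp2 was 0.41 higher (adjusted p = 0.000998). Without PMA replicates 1 and 4, Sfrp2 (adjusted p = 0.0591) and Timp2 (adjusted p = 0.0503) no longer passed against PA, while the other 7 of these genes did. SA lacks the double bond too, yet with SA Egr1 was -0.60 and Fmod 0.39 from control (adjusted p by limma 0.00023 and 0.0483). PMA minus SA did not pass for Egr1 (0.03, adjusted p = 0.904) or Fmod (0.16, adjusted p = 0.464). Of the genes named here only Ccl5 and Agtr2 differed between PMA and SA (adjusted p by limma 0.000823 and 0.0207).

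PMA and OA share 1 double bond and differ by 2 carbons. Lcn2 averaged 8.90 ± 0.13 with PMA and 8.07 ± 0.095 with OA, a difference of 0.83 (adjusted p = 0.000171). Prg4, the lubricating proteoglycan lubricin, was 0.72 higher with PMA than with OA (adjusted p = 0.0091) and 0.69 higher than with SA (adjusted p = 0.00739). Chchd10, a mitochondrial protein, was 0.58 higher than with OA (adjusted p = 0.00925), and Trib3, a pseudokinase of the stress response, 0.41 higher (adjusted p = 0.00958). Lower with PMA than with OA were B3galt2, a galactosyltransferase (-0.43), Lep (-0.35) and Pnpla3, a lipid droplet lipase family member (-0.30), with adjusted p by limma of at most 0.0254. The same 3 genes differed from SA, at -0.38, -0.34 and -0.27. Without PMA replicates 1 and 4, Lcn2 and B3galt2 passed against OA and B3galt2 against SA. Prg4, Lep and Pnpla3 then passed against neither, nor did Chchd10 or Trib3 against OA (adjusted p by limma 0.131 to 0.244). These genes were chosen after their values were seen. Where PMA and OA were not told apart, the intervals of PMA minus OA were -0.10 to 0.11 for Cdh11, -0.19 to 0.06 for Sema3c, -0.32 to 0.26 for Ccl5, 0.02 to 0.32 for Egr1 and -0.49 to -0.13 for Fmod. These intervals are not adjusted for the number of genes, and the adjusted p by limma was 0.364 for Egr1 and 0.147 for Fmod. A p that misses the threshold does not show that the 2 acids act alike on these genes.

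How many genes counted as changed depended on the scaling of the arrays. As deposited, 36 rose and 14 fell. After cyclic loess 14 rose and 54 fell, and after centring each array on its median 5 rose and 16 fell, while the median of all genes moved to 0.01 in both. Of the original 36 rises 14 passed after loess and 5 after centring, and of the 14 falls 14 and 13 passed. Without PMA replicates 1 and 4, which had the raised medians, 1 gene rose, BC023105, and 2 fell, Egr1 and Znfx1, with 2 PMA arrays left. The direction of each of the 50 genes was the same in every setting run. Leaving arrays out could not reverse it, as the groups of these genes do not overlap. Averaged over the 36 raised genes, PMA replicates 1 to 4 lay 0.36, 0.28, 0.29 and 0.32 above the control mean. Over the 14 lowered genes they lay at -0.40, -0.44, -0.40 and -0.41. Both sets were chosen by this same contrast, so the side on which these arrays lie was fixed by the choice.

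**Figure D4:**
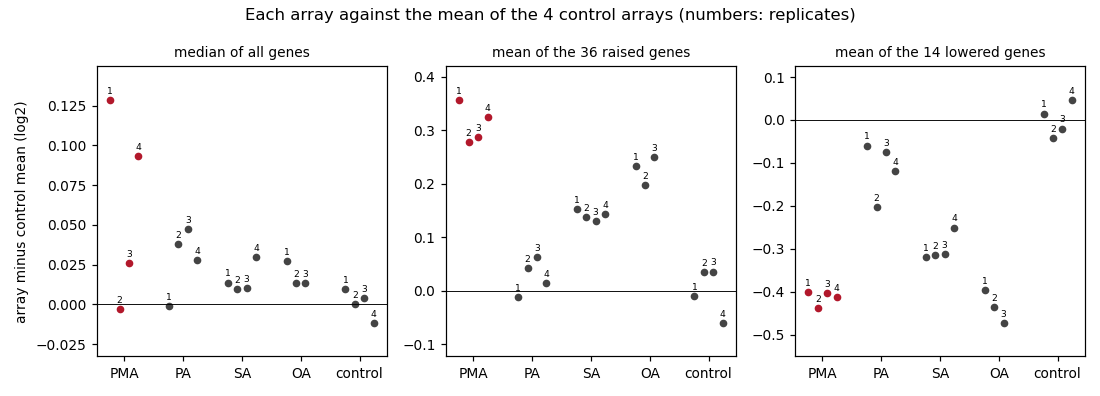
Each array minus the mean of the 4 control arrays (log2, vertical axes) for the median of all genes (left), the mean of the 36 raised genes (middle) and the mean of the 14 lowered genes (right), by group, with replicate numbers. PMA replicates 1 and 4 lead the left panel at 0.13 and 0.09, while in the other 2 panels all PMA arrays stand together, apart from control; these genes were chosen by that contrast.

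**Figure D5:**
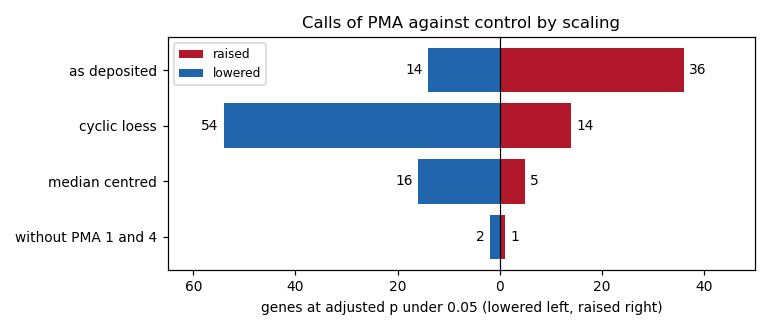
Number of genes past an adjusted p of 0.05 in PMA against control (horizontal axis, lowered to the left, raised to the right) for each scaling and with PMA replicates 1 and 4 left out. The 36 rises and 14 falls of the deposited values become 14 and 54 after cyclic loess, 5 and 16 after median centring and 1 and 2 without the 2 arrays.

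The count also leaned on single arrays. It left the range within 1.5 times of 50 when any of 15 of the 19 arrays was omitted. It was 8 without control replicate 4, 9 without control replicate 1 or without PMA replicate 1, 11 without PMA replicate 4, and 129 without PA replicate 2, which enters only through the shared spread. Of the 50 genes, 32 lost the call with 10 or more of the 19 arrays, and for 41 genes the largest adjusted p came from leaving out control replicate 4.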

How the data were processed

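RNA of 19 samples (100 ng each) was hybridised to whole-transcript mouse arrays. The deposited values are log2 expression, which the authors obtained by RMA (affy 1.34.0 under R 2.15.0), per the submitters' processing notes; the build is not given in the sources used here. Of 35556 probe sets 21218 had 1 gene symbol in the platform annotation, 1881 several and 12457 none. The brightest probe set by mean over all arrays stood for each of 18820 genes, with no filter on low values; 1386 genes had more than 1. Gene identifiers of 18790 genes were found in the RefSeq table of GRCm38.p6, 30 were not, and 0 symbols differed.

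All 19 arrays entered a single linear model with a mean for each group (limma 3.58.1 under R 4.3.3, lmFit, eBayes, no trend, not robust; tested on simulated data), so the 5 groups shared 1 spread. Tests were two-sided with Benjamini-Hochberg adjustment at 0.05. The 10 largest rises and 10 largest falls are given array by array, every gene that passed may be named, and up to 4 genes are named per list. A fixed panel was added, of which 33 genes were measured and 0 passed by limma. At an unadjusted p under 0.05, 5 panel genes were higher and 5 lower, against 14.5% and 1.49% of all genes. The 32 lists held 907 entries, 838 of them measured. Members and lists were chosen with earlier results of these data known. Replicate numbers showed no clear pairing of the arrays and were left out of the main model. Alternatives changed the scaling, filter, collapsing of probe sets, spread, weights, block and arrays included; scan files were not used here. The number of arrays limits the precision.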

Additional observations from a re-analysis of the deposited data

Results flagged for a closer look

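Among the 177 genes named or listed for naming, 13 of 354 groups of 4 arrays held 1 array far from its other three by Dixon's test, and chance alone marks about 1 group in 20. PMA replicate 1 stood apart for Adm (7.32, others 7.07 to 7.10), Ffar1 (4.93, others 4.58 to 4.64), Furin (9.31, others 9.10 to 9.12) and the raised gene Olfml2b (9.75, others 9.59 to 9.61). PMA replicate 2 did so for Orm1 (10.7, below the others at 10.75) and Scarna13 (8.33, others 7.78 to 7.85), and PMA replicate 3 for Fdps (10.5, just above the others), Ucp3 (6.18, others 6.01 to 6.02) and Uqcrh (10.6, others 10.52). PMA replicate 4 stood apart for Acaa2 (10.6, others 10.49) and Cebpa (10.1, others 10.07). In control cells these were replicate 1 for Cidea (5.67, others 5.59) and replicate 2 for Furin (9.10, others 9.01 to 9.02).

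Probe sets outside the gene-level comparison also passed when tested apart. Of 1881 probe sets with several gene symbols 38 passed (2.02%), 13 higher and 25 lower with PMA. Several of these share symbols and near-identical sequence, so they are not independent; probe sets listed for both Gm12191 and Rpl30 fell by 0.45 to 0.52, while the probe set listed for Rpl30 alone differed by -0.12 (adjusted p = 0.387). Of 12457 probe sets with no symbol 2 passed. Probe set 10342673 had 11.08, 11.07, 11.00 and 11.07 in PMA cells, against 10.56, 10.77, 10.64 and 10.54 in control cells. Probe set 10603649 had 9.58, 9.57, 9.69 and 9.58 in PMA cells, against 10.56, 10.24, 10.05 and 10.42 in control cells. In both the groups did not overlap.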

How the results depend on the processing

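The 50 calls of PMA against control (36 raised, 14 lowered) became 199 (159 and 40) without the dimmest genes, the lowest 1 in 3, 213 (170 and 43) with a trended robust spread, 315 (247 and 68) with array weights, 68 (14 and 54) after cyclic loess, 21 (5 and 16) after median centring, 21 (8 and 13) with only the 8 arrays compared, and 3 (1 and 2) without PMA replicates 1 and 4 together. They were 39 with probe sets averaged per gene and 60 with every probe set. The replicate number as a block gave 16 (7 and 9). Same-numbered PMA and control arrays correlated at -0.05 to 0.15 and different-numbered ones at -0.16 to 0.08, and 4 of 19 arrays matched their own number best. No clear pairing by number was seen, but values this weak from 4 arrays per group cannot exclude it. Leaving out 1 array at a time gave 8 to 129 calls (3 to 93 raised, 5 to 36 lowered). Against PA, the 101 genes became 163 without the dimmest genes, 214 with the robust spread and 40 to 82 with a PMA array left out. Against SA, the 52 became 87 with array weights and 24 to 51 with a PMA array left out. Against OA, the 29 became 14 after median centring, 48 with the robust spread, 88 with array weights, 15 with the replicate block and 9 to 29 with a PMA array left out. Without PMA replicates 1 and 4 together, chosen for these pairs after seeing the data, 16 genes differed from PA, 9 from SA and 4 from OA. No named gene that had passed changed sign in any of these settings. For settings that leave arrays out this was fixed beforehand, as the groups of these genes do not overlap. Beyond these settings' own construction, the cause was not tested. The scan files, which hold signal over background, were not used here.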

Other observations

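After cyclic loess between arrays, 40 genes were lower with PMA that had not passed on the deposited values, and those named here were chosen after their values were seen. They included genes of translation and protein handling, such as Rps24, a ribosomal protein (-0.33), Mrpl21, of the mitochondrial ribosome (-0.36), Eef1b2, an elongation factor subunit (-0.22), Srp14, of the signal recognition particle (-0.24), Pomp, which helps to build proteasomes (-0.26), and Hspe1, the small mitochondrial chaperonin (-0.22). Med11, a second Mediator subunit beside Med21, was at -0.34, and Ccn1 at -0.40. Other genes of the 40 did not belong to these kinds, such as Acyp2 (-0.40), Zfp958 (-0.37) and S100a8 (-0.34). The share of each kind among the 40 or among all genes was not counted. For the genes named here, the adjusted p by limma on the deposited values lay between 0.0631 for Rps24 and 0.14 for Hspe1. Over all 40 it ran from 0.0577 for Dnajc15 to 0.208 for L3hypdh.

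Without cyclic loess, 3 genes passed a 1.5-fold difference, all of them higher with PMA. Besides BC023105 these were Scarna13, a small Cajal body RNA (0.81, adjusted p by limma 0.068), and Snora70, a small nucleolar RNA (0.68, adjusted p by limma 0.0798), neither of which passed.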
